A study of Mus musculus with 20 samples.

Results

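The genes described here are the PARPs and Schlafens that type I interferon induces, with constitutive Parp1 as a reference. The members are the listed symbols Parp1, Parp9, Parp10, Parp12, Parp14, Dtx3l, Slfn2, Slfn5, Slfn8 and Slfn9, and all 10 were found among the 39017 identifiers counted. They were measured by RNA-seq in cells sorted from the forebrain on the injured side, microglia or astrocytes, 7 days after lateral fluid percussion injury (FPI) or sham surgery. The 4 groups were Sham microglia, FPI microglia, Sham astrocytes and FPI astrocytes, with 5 libraries each, and by their numbers the libraries of a group came from separate animals except that FPI astrocyte libraries 2 and 5 carry the same number and may be 1 mouse. All mice were adult male C57BL/6J, aged 3 to 4 months by the study's methods. In FPI mice a craniectomy was followed by a pressure wave delivered through fluid to the brain surface, and sham mice had the same surgery and attachment without the wave. Microglia were gated as CD11b+ cells with intermediate CD45, and astrocytes by the surface antigen ACSA-2.

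PARPs transfer ADP-ribose from NAD onto proteins or nucleic acids. Parp1 builds long chains at DNA breaks, whereas Parp10, Parp12 and Parp14 add single units, and Parp9 works as a partner of the ubiquitin ligase Dtx3l. Schlafens are a family of interferon-induced genes of immune cells, in which Slfn2 belongs to the short forms and Slfn5, Slfn8 and Slfn9 to the long forms with a helicase-like domain.

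Total counts per library ran from 5623349 to 13110857 in Sham microglia and from 6890710 to 8396868 in FPI microglia. In Sham astrocytes they ran from 7998479 to 10917112, and in FPI astrocytes from 6470553 to 10194999. Levels are given as CPM, with TMM factors, on one scale for all 20 libraries. The 6 microglia markers summed to 21705 ± 1787 CPM in Sham microglia and to 40.1 ± 12.5 CPM in Sham astrocytes (SD, n = 5). The 6 astrocyte markers summed to 18573 ± 7090 CPM in Sham astrocytes and to 286 ± 46.6 CPM in Sham microglia (SD, n = 5). FPI astrocyte library 5 has a name with the suffix used for microglia and with the same animal number as FPI astrocyte library 2. Its microglia markers summed to 134 CPM against 13626 CPM for its astrocyte markers, and its title was followed, with n given as libraries.

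The 4 Schlafen members lie in one cluster on chromosome 11, Slfn5 at chr11:82951349-82964840 on the plus strand, Slfn9 at chr11:82978390-82991830 and Slfn8 at chr11:83002158-83020810 on the minus strand, and Slfn2 at chr11:83065112-83070678 on the plus strand (GRCm38). Windows from 250 bases before to 50 bases after a gene's start were taken from RefSeq (GRCm38.p6) and matched 7 of the 10 members, all but Parp9, Parp10 and Parp14. They were searched on both strands for GAAA, any 2 bases and GAAA again, the core of the interferon-stimulated response element, which 3.44% of all 32851 windows hold. It was found in 3 members, Slfn5, Slfn8 and Slfn9, whose windows are shown because these members of the cluster share the letters. Capitals mark the match.
Slfn5, chr11:82951852-82952151, plus strand: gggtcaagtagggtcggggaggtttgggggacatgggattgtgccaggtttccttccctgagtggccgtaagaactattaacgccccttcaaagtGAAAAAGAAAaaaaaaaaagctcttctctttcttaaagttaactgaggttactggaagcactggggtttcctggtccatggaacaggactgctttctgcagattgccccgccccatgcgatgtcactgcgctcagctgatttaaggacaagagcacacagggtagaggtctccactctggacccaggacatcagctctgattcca
Slfn8, chr11:83020761-83021060, minus strand: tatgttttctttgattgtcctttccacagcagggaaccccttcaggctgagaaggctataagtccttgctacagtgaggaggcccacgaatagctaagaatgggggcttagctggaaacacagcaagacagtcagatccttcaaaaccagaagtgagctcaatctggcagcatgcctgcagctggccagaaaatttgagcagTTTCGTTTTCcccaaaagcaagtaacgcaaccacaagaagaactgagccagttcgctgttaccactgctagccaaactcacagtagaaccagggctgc
Slfn9, chr11:82991781-82992080, minus strand: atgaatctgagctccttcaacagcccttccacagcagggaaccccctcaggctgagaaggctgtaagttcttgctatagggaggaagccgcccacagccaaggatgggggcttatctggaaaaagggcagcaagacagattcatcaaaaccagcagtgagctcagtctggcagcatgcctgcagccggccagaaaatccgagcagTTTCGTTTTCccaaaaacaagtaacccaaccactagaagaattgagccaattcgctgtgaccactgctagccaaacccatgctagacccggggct
Counted from the RefSeq start, the match began at base -155 in Slfn5, at -48 in Slfn8 and at -45 in Slfn9. In Slfn8 and Slfn9 it was read on the opposite strand. The Slfn5 window lies wholly inside the span given above for Slfn5, which is from GENCODE and begins further upstream. The Slfn5 match is therefore upstream of the RefSeq start but downstream of the GENCODE start. The Slfn8 and Slfn9 windows were identical at 80.5% of 308 aligned positions, against 44% of 348 for Slfn5 and Slfn9. A second Slfn8 start in the table gave a window that holds the same letters at -136. The windows of Parp1, Parp12, Dtx3l and Slfn2 did not contain these letters, and TTCNNNGAA, the core of the gamma-activated site, which 8.3% of all windows hold, was in no member's window.

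FPI was compared with sham in microglia to ask which members responded 7 days after injury. Slfn5 had the largest fold change of the 10 members, followed by Slfn2, Slfn9 and Parp14. Of the 10 members, 6 were called higher and 0 lower, requiring an adjusted p under 0.1 and a log2 change of more than 0.6 either way, whereas 2.13% of the 12143 genes tested were called higher and 2.35% in either direction. An unadjusted p below 0.05 was reached by 9 members, all higher, and by 7.47% of genes in that direction. The median log2 fold change of the 10 members was 0.64, against -0.0094 for all genes tested. In 6 members the FPI libraries all exceeded the sham libraries, as in 2.17% of genes tested, and in 0 members they were all below them, as in 1.27%. In bulk samples such as these, fewer cells of a type and less RNA per cell cannot be told apart, and the p-values measure the spread between these libraries.

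**Figure D1:**
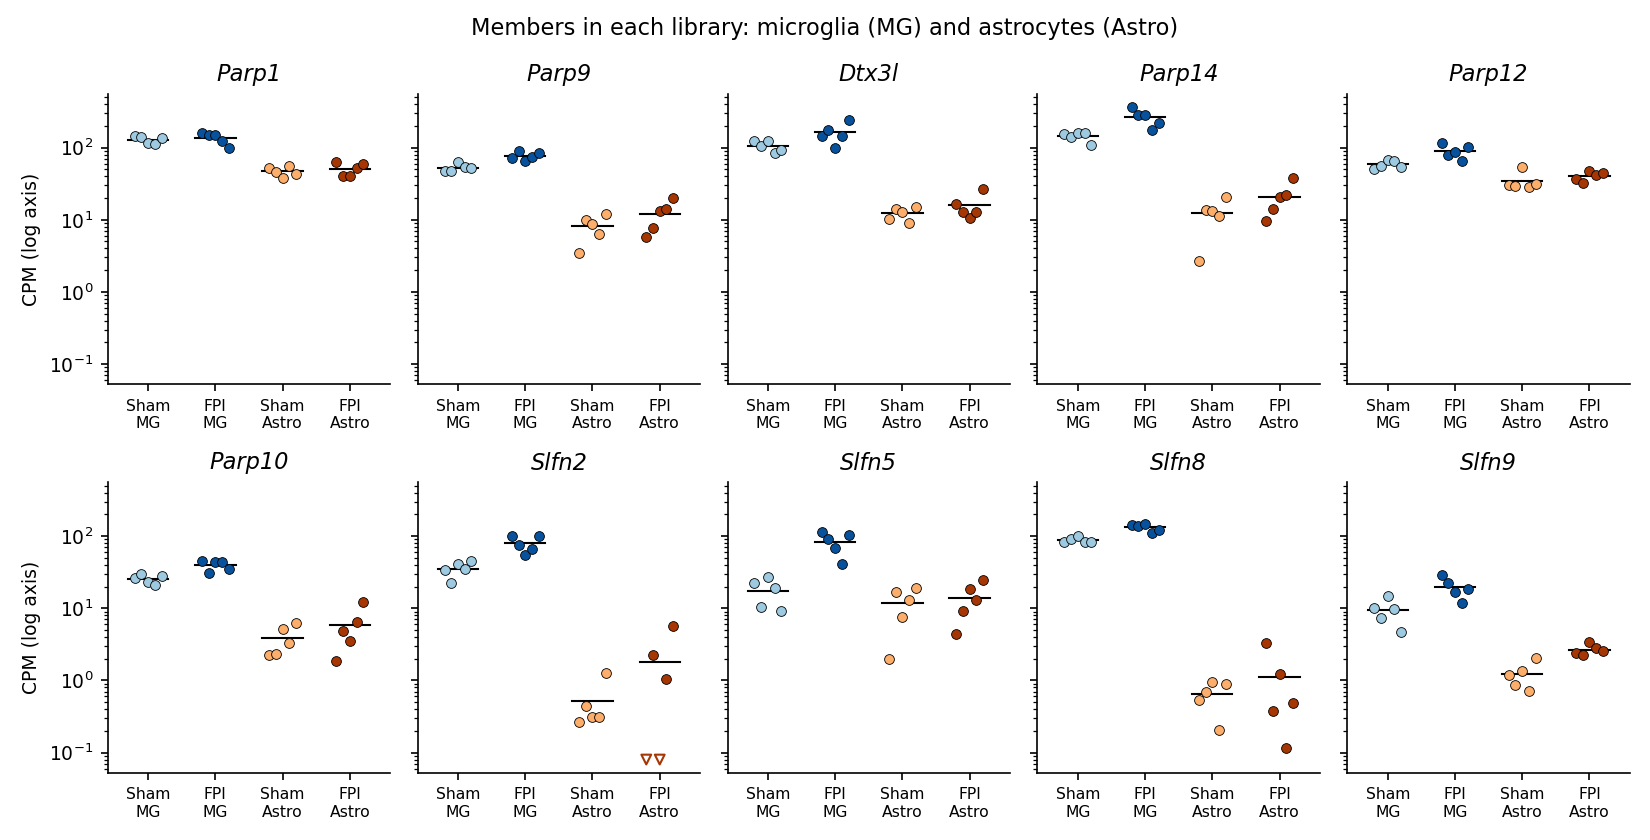
CPM on a log axis for each member in each library, with 5 points per group, a bar at the group mean and open triangles for libraries at 0 counts (MG, microglia; Astro, astrocytes). Slfn5 lies from 41.4 to 114 CPM in FPI microglia and from 9.28 to 26.8 CPM in Sham microglia, and Parp1 overlaps between sham and FPI in both cell types.

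Slfn5 was at 22.2, 10.3, 26.8, 19.3 and 9.28 CPM in the 5 Sham microglia libraries. It was at 114, 89.9, 67.9, 41.4 and 103 CPM in the 5 FPI microglia libraries. The lowest FPI library, library 4, was above the highest sham library, so the groups did not overlap. Slfn5 rose by 2.26 on the log2 scale (SE 0.29, 95% interval 1.64 to 2.87), or 4.77-fold, with an adjusted p of 1.54e-04 in the edgeR quasi-likelihood test (Benjamini-Hochberg). Slfn5os, an antisense gene, overlaps it in 559 bases of exon, and without stated strand settings their reads cannot be told apart there.

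Slfn2, known for its part in the quiescence of T cells and monocytes, was at 34.2, 22.5, 40.4, 34.6 and 45.8 CPM in Sham microglia. In FPI microglia it was at 102, 74.6, 54.8, 66.2 and 101 CPM. All FPI libraries were above all sham libraries, with libraries 1 and 5 highest after FPI. Slfn2 rose by 1.19 on the log2 scale (SE 0.21), with an adjusted p of 0.00304 in the edgeR quasi-likelihood test (Benjamini-Hochberg).

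Slfn8 and Slfn9 lie next to each other. Slfn8 was at 84.1, 90.8, 101, 83.3 and 83.3 CPM in Sham microglia and at 144, 137, 147, 112 and 122 CPM in FPI microglia. These groups did not overlap, and the spread within each was small. The log2 fold change of Slfn8 was 0.59 (SE 0.12, 95% interval 0.34 to 0.84), just under the minimum, and it was not called although the adjusted p was 0.00907 in the edgeR quasi-likelihood test (Benjamini-Hochberg). Slfn9 was at 10.1, 7.25, 14.9, 9.87 and 4.73 CPM in Sham microglia and at 28.8, 22.5, 16.6, 11.7 and 18.3 CPM in FPI microglia. FPI library 4 was below sham library 3, so the groups overlapped. Slfn9 rose by 1.07 on the log2 scale (SE 0.30), with an adjusted p of 0.0819 in the edgeR quasi-likelihood test (Benjamini-Hochberg), a call that was kept in only 3 of the 10 fits that each left out 1 library. Of the 50-base stretches of Slfn8 exons, 9.3% also occur in Slfn9, while 0 of the 4384 stretches of 150 bases do. Counts for either may include reads from the other where the aligned parts are short.

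Parp14, a mono-ADP-ribosyltransferase with macrodomains, was at 157, 138, 158, 160 and 110 CPM in Sham microglia. In FPI microglia it was at 369, 280, 286, 174 and 217 CPM. Library 4 was again the lowest of the FPI group, and it lay above every sham library. Parp14 rose by 0.89 on the log2 scale (SE 0.17), with an adjusted p of 0.00583 in the edgeR quasi-likelihood test (Benjamini-Hochberg). Gm49730 overlaps it on the same strand in 110 bases of exon.

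Parp12, a zinc finger PARP with antiviral activity, was at 50.7, 55.7, 68.1, 65.3 and 54.5 CPM in Sham microglia and at 115, 80, 88.3, 65.6 and 103 CPM in FPI microglia. FPI library 4 fell within the sham range, and the other FPI libraries were above it. Parp12 rose by 0.64 on the log2 scale (SE 0.16), with an adjusted p of 0.0394 in the edgeR quasi-likelihood test (Benjamini-Hochberg). Parp10 was at 26.5, 29.9, 23.3, 21 and 28.4 CPM in Sham microglia and at 45.3, 30.7, 43.2, 43.7 and 34.6 CPM in FPI microglia. FPI library 2 was just above the highest sham library, and the groups did not overlap. Parp10 rose by 0.63 on the log2 scale (SE 0.17), with an adjusted p of 0.0711 in the edgeR quasi-likelihood test (Benjamini-Hochberg). Parp10 overlaps Plec on the same strand in 205 bases of exon.

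Dtx3l and Parp9, whose proteins form a complex, lie head to head on chromosome 16 with starts 681 bases apart and 458 bases of exon in common, Dtx3l at chr16:35926511-35939151 and Parp9 at chr16:35938470-35972605 (GRCm38). Parp9 was at 47.4, 47.8, 62.4, 53.1 and 51.7 CPM in Sham microglia and at 71.3, 88.5, 66, 73.3 and 83.9 CPM in FPI microglia. Dtx3l was at 124, 106, 122, 84.6 and 91.5 CPM in Sham microglia and at 146, 178, 99.1, 145 and 244 CPM in FPI microglia. The groups did not overlap for Parp9, whereas for Dtx3l FPI library 3 fell within the sham range and library 5 was far above it. For Parp9 the log2 fold change was 0.56 (SE 0.14), with an adjusted p of 0.0394 in the edgeR quasi-likelihood test (Benjamini-Hochberg), and it was not called because the change was under the minimum. For Dtx3l it was 0.64 (SE 0.19), with an adjusted p of 0.113 in the edgeR quasi-likelihood test (Benjamini-Hochberg), and it was not called.

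Parp1 was at 143, 139, 116, 111 and 135 CPM in Sham microglia and at 157, 149, 151, 122 and 99.8 CPM in FPI microglia. The groups overlapped, and FPI library 5 was the lowest of all 10. The log2 fold change was 0.087 (SE 0.13, 95% interval -0.19 to 0.37), with an adjusted p of 0.897 in the edgeR quasi-likelihood test (Benjamini-Hochberg). Taken relative to Parp1 within each library, Slfn5, Slfn2, Parp14 and Slfn8 were higher in every FPI library than in every sham library, and the other 5 members overlapped.

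**Figure D2:**
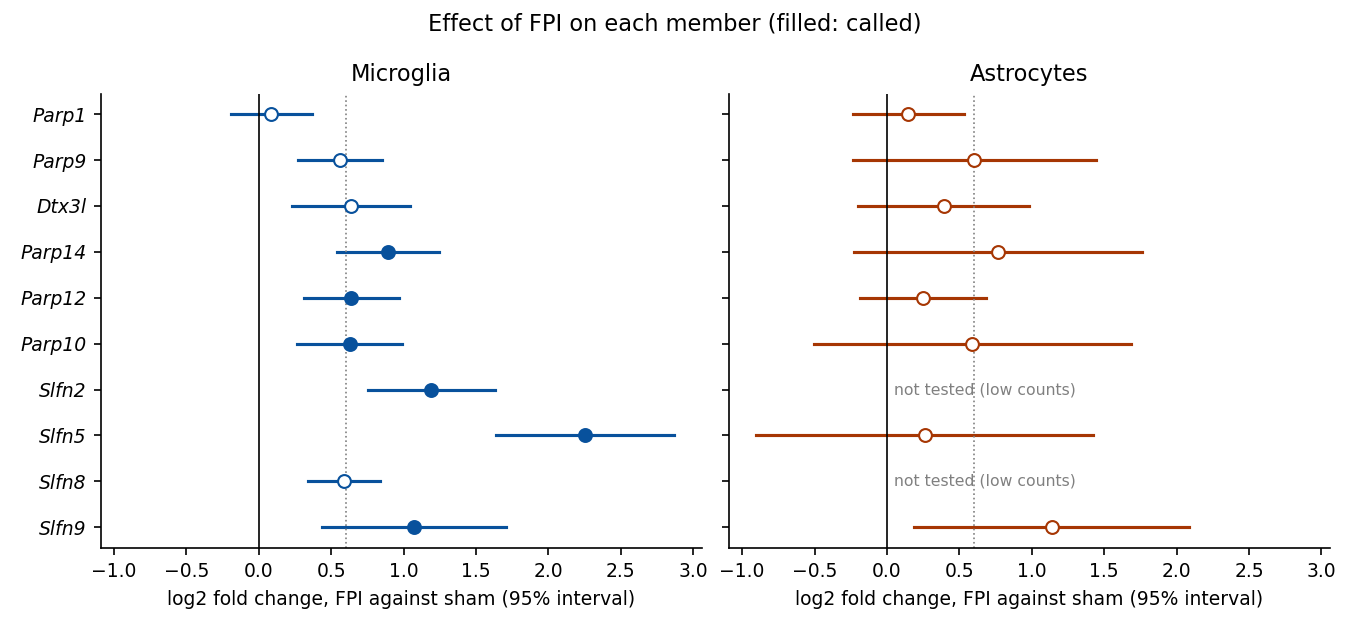
Log2 fold change of FPI against sham with its 95% interval for each member in microglia and in astrocytes, filled where called, with a dotted line at the minimum of 0.6. Slfn5 stands at 2.26 in microglia and at 0.26 in astrocytes, and the intervals are wider in astrocytes.

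Slfn5, Slfn2 and Parp14 were called in each of the 10 fits that left out 1 microglia library, Parp12 in 6, Parp10 in 4 and Slfn9 in 3 of them, while the count of members called fell to 3 without sham library 1, without sham library 2 or without FPI library 1. Fitted together with the astrocytes, 1 member, Slfn5, was called in microglia. The share of all genes called in these fits is not given here, so a lower count cannot be read as particular to the members.

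Microglia libraries 4 and 5 of each condition belong to another series of library names than libraries 1 to 3. With libraries 1 to 3 alone 5 members were called, and with libraries 4 and 5 alone 3 were called, Slfn5, Slfn2 and Dtx3l. The share of all genes called in each series is not given here, so these counts are descriptions. Slfn5 had a log2 fold change of 2.19 in libraries 1 to 3 and 2.37 in libraries 4 and 5. That of Slfn2 was 1.24 and 1.11, that of Parp14 1.03 and 0.59, and that of Dtx3l 0.25 and 1.20 in the same order. The estimates of the 9 members other than Parp1 were above 0 in both series.

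**Figure D3:**
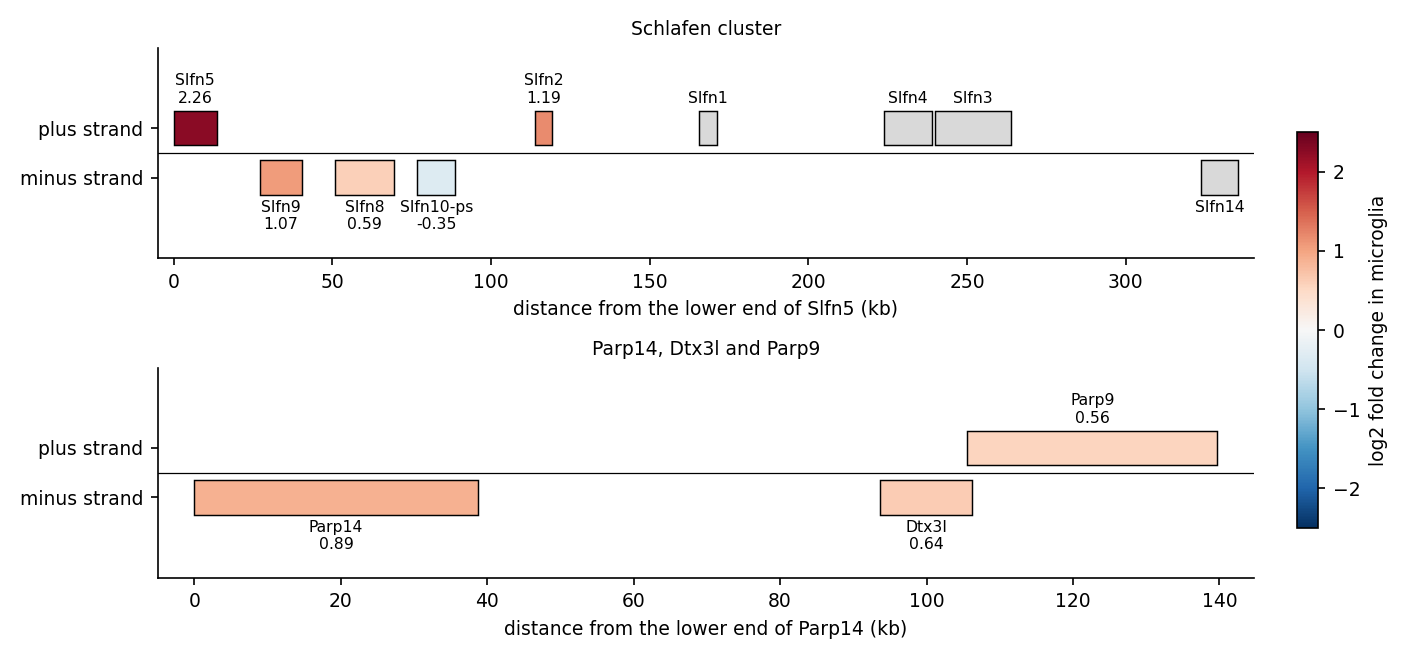
Positions of the Schlafen cluster and of Parp14, Dtx3l and Parp9 as distance in kb, with each gene coloured by its log2 fold change after FPI in microglia and grey where not tested. Slfn5 at 2.26 and Slfn2 at 1.19 lie on either side of Slfn9, Slfn8 and Slfn10-ps, at 1.07, 0.59 and -0.35.

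Other Schlafens were read beside the members, and differences between genes were not tested. Slfn10-ps, a pseudogene next to Slfn8, was not called (log2 fold change -0.35, SE 0.63, 95% interval -1.67 to 0.98, adjusted p 0.917 in the edgeR quasi-likelihood test with Benjamini-Hochberg). It shares 8.1% of the 50-base stretches and 1.46% of the 150-base stretches of Slfn9 exons. Of Slfn8 exons it shares 10.1% of the 50-base stretches and 0 of the 150-base stretches. The other 5 Schlafens listed were below the filter on low counts in microglia, and Slfn14 was at 0 counts in all libraries. Slfn1 had 3 counts over the Sham microglia libraries and 43 over the FPI microglia libraries, Slfn3 had 28 and 38, Slfn4 had 0 and 8, and Slfnl1 had 10 and 2. On chromosome 16 the gap between Parp14 and Dtx3l is 55 kb, and the log2 fold changes of Parp14, Dtx3l and Parp9 were 0.89, 0.64 and 0.56.

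The other PARP genes were read in the same way. Of 11 tested in microglia 0 were called by the edgeR quasi-likelihood test, where 2.35% of all genes were, with a median log2 fold change of -0.087 against -0.0094 for all genes, and 2 had an unadjusted p below 0.05, as did 11.3% of all genes. The first was Zc3hav1, the antiviral PARP that binds viral RNA, with a log2 fold change of 0.31 (SE 0.12), no overlap between FPI and sham and an adjusted p of 0.248 in the edgeR quasi-likelihood test (Benjamini-Hochberg). The other was Parp16, a PARP of the endoplasmic reticulum, at 9.86 ± 2.66 CPM in sham and 3.71 ± 1.74 CPM in FPI microglia (SD, n = 5). Its log2 fold change was -1.40 (SE 0.41), with an adjusted p of 0.100245 in the edgeR quasi-likelihood test (Benjamini-Hochberg), just above the threshold. The remaining 9 had log2 fold changes of -0.45 for Parp6, -0.20 for Tiparp, -0.19 for Parp8, -0.093 for Parp2, -0.087 for Parp4, -0.012 for Tnks2, -0.0091 for Tnks, 0.010 for Parp11 and 0.29 for Parp3.

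**Figure D4:**
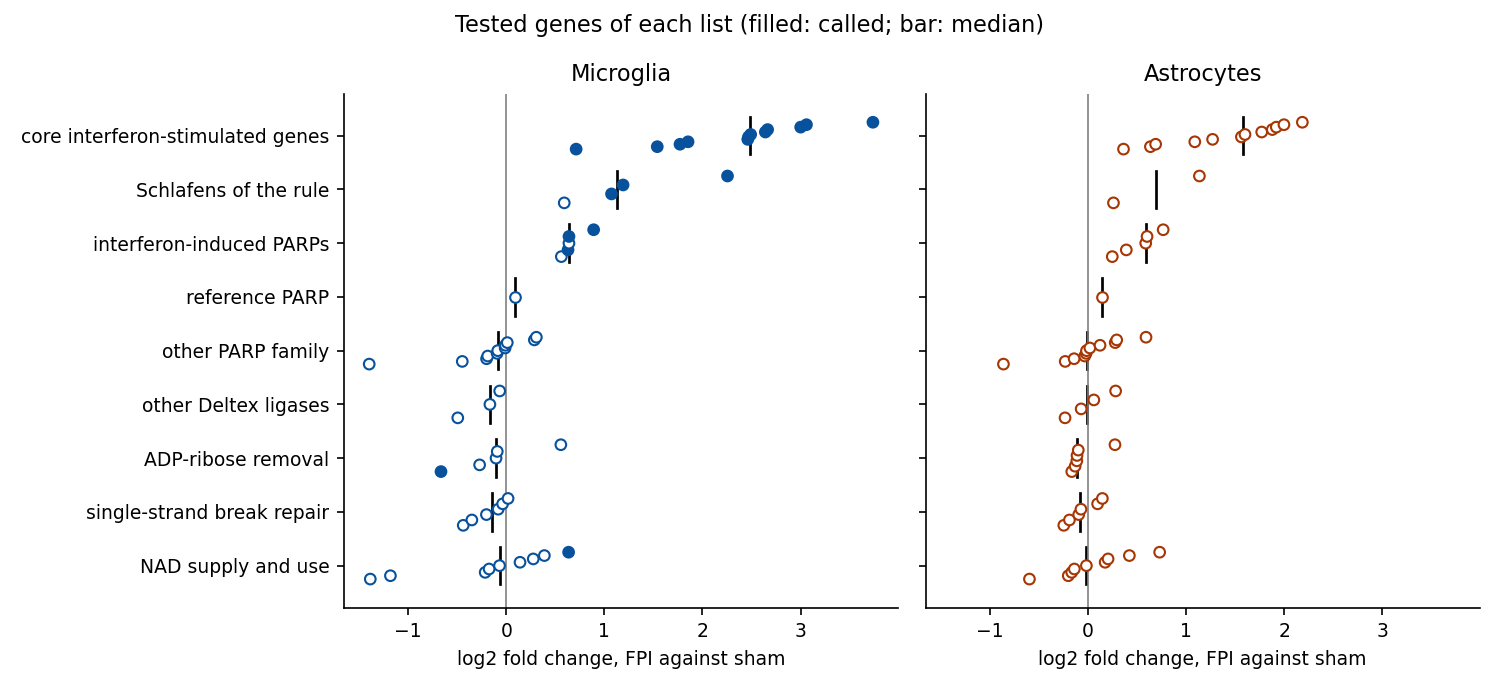
Log2 fold change of FPI against sham for the tested genes of 9 lists in microglia and in astrocytes, filled where called, with a bar at the list's median. In microglia the core interferon-stimulated genes have a median of 2.48 and the other PARP family genes a median of -0.087.

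Genes that handle ADP-ribose and NAD were read too, in the light of 2.13% of all genes called higher and 0.214% called lower in microglia. Of 5 tested genes for ADP-ribose removal, 1 was called lower and 0 higher, with a median of -0.10. Oard1, which removes ADP-ribose from proteins, fell by 0.67 on the log2 scale (SE 0.20), with every FPI library below every sham library and an adjusted p of 0.0998 in the edgeR quasi-likelihood test (Benjamini-Hochberg). Of 9 tested genes of NAD supply and use, 1 was called higher and 0 lower, with a median of -0.069. Nampt, the rate-limiting enzyme of NAD salvage, rose by 0.64 on the log2 scale (SE 0.17), with every FPI library above every sham library and an adjusted p of 0.0666 in the edgeR quasi-likelihood test (Benjamini-Hochberg). None of the 6 genes of single-strand break repair, which act with Parp1, was called by the edgeR quasi-likelihood test, 0 had an unadjusted p below 0.05, and their median was -0.14. None of the 3 other Deltex ligases tested was called, with a median of -0.17, and 1 had an unadjusted p below 0.05.

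The core interferon-stimulated genes gave larger changes than most members in the same microglia. Of the 12 listed, 12 were called higher, with a median of 2.48 and a range from 0.71 for Ddx58 to 3.74 for Ifi44. The others were Isg15 at 3.06, Oasl2 at 3.00, Cmpk2 at 2.66, Ifit1 at 2.64, Rsad2 at 2.49, Usp18 at 2.47, Ifit3 at 2.46, Rtp4 at 1.85, Xaf1 at 1.77 and Bst2 at 1.54. Among genes that carry the signal from the interferon receptor, Irf7 rose by 2.85 and Stat2 by 1.00, while 5 others were not called. Slfn5, Slfn2, Slfn9 and Parp14 were within the range of the core genes, and the other members were below it.

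Patterns over the 10 microglia libraries were compared by the root mean square difference of centred log2 CPM. The nearest gene was C4b for Slfn5 (0.33), Eif2ak2 for Parp14 (0.14), Nrp1 for Slfn8 (0.12) and Plin2 for Slfn9 (0.21). It was C2cd2 for Parp12 (0.11), Rassf4 for Parp9 (0.094), Itga5 for Parp10 (0.17) and Gm1821 for Dtx3l (0.16). The median difference to all genes was 1.35 for Slfn5 and 0.50 for Slfn8.

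Markers of other cells were read in the same libraries. Of the 6 astrocyte markers, Gfap rose in FPI microglia, by 2.78 on the log2 scale, and 0 fell. All 6 estimates were higher, with a median of 0.85, and 4 had an unadjusted p below 0.05, as did 7.47% of all genes on the higher side. Their sum was 286 ± 46.6 CPM in sham and 398 ± 136 CPM in FPI microglia (SD, n = 5), the most abundant being Slc1a3 in sham and Slc1a2 in FPI. By library it was 316, 250, 310, 333 and 225 CPM in sham and 522, 564, 339, 286 and 277 CPM in FPI microglia, so the groups overlapped. The 5 oligodendrocyte markers summed to 128 ± 20 CPM in sham and 178 ± 33.9 CPM in FPI microglia (SD, n = 5). Of 2 oligodendrocyte precursor markers tested Cspg4 rose by 2.29, whereas Pdgfra had an estimate of -1.66 and was not called. The sum of the 5 listed was 6.37 CPM in sham and 10.7 CPM in FPI microglia, with Pdgfra the most abundant in sham and Cspg4 in FPI. The part of these genes in the members' changes was not tested.

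Monocyte and macrophage markers, 6 in all, gave 0 calls among 4 tested. By library they summed to 410, 276, 422, 26.1 and 19.1 CPM in sham and to 250, 182, 133, 20.9 and 62.2 CPM in FPI microglia, with Mrc1 the most abundant and Ly6c2 at 0. Libraries 1 to 3 of both conditions were above libraries 4 and 5, and the part of these cells in the members' levels was not tested. The 3 B cell markers were at 0 in all groups. T and NK cell markers summed to 0.044 CPM in sham and 0 CPM in FPI microglia, and neutrophil markers to 2.89 and 4.06 CPM with S100a9 the most abundant and Ly6g at 0. Neuron markers summed to 3.75 and 3.33 CPM with Syt1 the most abundant in sham and Snap25 in FPI, and endothelial markers to 62.6 and 56.2 CPM with Pecam1 the most abundant, with 0 of 1 and 0 of 5 tested called. Of the 6 microglia markers 0 were called by the edgeR quasi-likelihood test, but 3 had an unadjusted p below 0.05 with lower estimates, Tmem119 at -0.47, P2ry12 at -0.50 and Cx3cr1 at -0.36, and the sum of the 6 was 21705 CPM in sham and 19560 CPM in FPI microglia.

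In astrocytes 0 of the 8 members tested were called by the edgeR quasi-likelihood test, where 0.00728% of 13741 genes tested, 1 gene, was called higher. DESeq2 also called 0 members, and the share of all genes that it called is not given here. In the edgeR test 1 member, Slfn9, had an unadjusted p below 0.05, as did 2.32% of genes in either direction and 1.57% with a higher level. The estimates of the 8 members were above 0, with a median of 0.49 against -0.0052 for all genes. Slfn2 and Slfn8 were under the filter on low counts, with 23 and 30 counts over the Sham astrocyte libraries and 63 and 49 over the FPI astrocyte libraries.

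Slfn9 was at 1.20, 0.871, 1.36, 0.718 and 2.02 CPM in Sham astrocytes and at 2.37, 2.25, 3.36, 2.82 and 2.56 CPM in FPI astrocytes. It was the only member tested in astrocytes whose FPI libraries all exceeded the sham libraries, as in 0.451% of genes, from 55 and 108 counts in all. Its log2 fold change was 1.14 (SE 0.44, unadjusted p 0.0226), and the adjusted p was 0.999 in the edgeR quasi-likelihood test (Benjamini-Hochberg).

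Parp14 was at 2.66, 13.6, 13.4, 11.4 and 21 CPM in Sham astrocytes and at 9.58, 14.1, 20.8, 21.8 and 38 CPM in FPI astrocytes. Slfn5 was at 1.99, 17.1, 7.63, 13.1 and 19.3 CPM in Sham astrocytes and at 4.43, 9.26, 18.4, 13.1 and 24.9 CPM in FPI astrocytes. For both genes library 1 was the lowest and library 5 the highest in each condition, and sham and FPI overlapped. The log2 fold change was 0.77 (95% interval -0.23 to 1.76) for Parp14 and 0.26 (95% interval -0.90 to 1.42) for Slfn5. That of Slfn5 was -0.028 without sham library 1 and -0.067 without FPI library 5, the library with the doubtful name. The others were 0.60 for Parp9, 0.59 for Parp10, 0.39 for Dtx3l, 0.25 for Parp12 and 0.15 for Parp1, with overlapping groups.

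The astrocyte libraries also held markers of other cells. The 5 endothelial markers, all tested and 0 called after FPI, summed to 22.3, 371, 119, 205 and 415 CPM in Sham astrocytes and to 85, 203, 346, 202 and 326 CPM in FPI astrocytes, with Flt1 the most abundant and none of the 5 at 0. In Sham astrocytes their order by library was that of Slfn5, and in FPI astrocytes library 1 was the lowest for both and libraries 3 and 5 were the highest for both. The part of endothelial cells in the levels of Slfn5 and Parp14 in astrocytes was not tested. Oligodendrocyte markers summed to 6600 ± 5495 CPM in sham and 6868 ± 2831 CPM in FPI astrocytes (SD, n = 5). Oligodendrocyte precursor markers summed to 444 ± 193 and 651 ± 417 CPM (SD, n = 5), and 0 of either list were called after FPI. The estimates of the 5 precursor markers were all higher, with a median of 1.47 on the log2 scale. An unadjusted p below 0.05 in the edgeR quasi-likelihood test was reached by 3 of them, as by 1.57% of genes with a higher level. The part of these cells in the members' levels was not tested.

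Microglia markers summed to 40.1 ± 12.5 CPM in sham and 87.3 ± 43.7 CPM in FPI astrocytes (SD, n = 5). By library they were at 59.8, 44.8, 34.5, 31.5 and 29.7 CPM in sham and at 117, 103, 39.5, 42.6 and 134 CPM in FPI astrocytes. The difference between FPI and sham astrocytes was between 0.113% and 0.332% of the FPI microglia level for these 6 genes. The same share was 0.342% for Slfn8, 1.62% for Slfn2, 2.66% for Slfn5, 3.2% for Parp14 and 7.35% for Slfn9. It was 2.18% for Dtx3l, 4.83% for Parp10, 5.32% for Parp9 and 6.47% for Parp12. For the reference Parp1 it was 2.94%, so a share above that of the markers was not particular to the interferon-induced members. The values for Slfn2, Slfn5 and Parp14 rested in large part on FPI astrocyte library 5, the library with the doubtful name. It was the highest for all of them, at 5.75, 24.9 and 38 CPM. Without it the log2 fold change of Slfn5 in astrocytes was -0.067. The value for Slfn8 rested on FPI astrocyte library 1, as it was at 0.531, 0.697, 0.94, 0.205 and 0.884 CPM in sham and at 3.30, 0.376, 1.25, 0.117 and 0.479 CPM in FPI astrocytes. Slfn2 was at 0, 2.25, 0, 1.06 and 5.75 CPM in FPI astrocytes, highest in library 5, where the markers were highest too. In library 1, however, the markers were at 117 CPM and Slfn2 was at 0. The part of microglial RNA in the level of Slfn2 was not tested. In astrocytes 0 genes of the other lists given above were called, and the core interferon-stimulated genes had a median of 1.58, with 9 of 12 at an unadjusted p below 0.05.

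The effect of FPI was compared between the cell types by the difference of the log2 fold changes, microglia minus astrocytes. This comparison shares its libraries with those above, so the values stand side by side. By the edgeR quasi-likelihood test 0 of 10 members were called, with 0.199% of 15077 genes called and 0.0332% called higher. DESeq2 called 0 members, its share of all genes not being given here. In the edgeR test 1 member had an unadjusted p below 0.05, as did 7.02% of genes in either direction and 3.77% with a higher value. That member was Slfn5, with a difference of 2.01 (SE 0.67, 95% interval 0.62 to 3.39, unadjusted p 0.00662) and an adjusted p of 0.450 in the edgeR quasi-likelihood test (Benjamini-Hochberg), so the difference did not pass. The difference was 0.39 (95% interval -0.15 to 0.94) for Parp12, 0.13 (95% interval -0.93 to 1.20) for Parp14 and -0.041 (95% interval -0.52 to 0.43) for Parp1. Slfn2 and Slfn8 passed the filter of this fit only through the microglia libraries. Their differences rest on few astrocyte counts (SE 0.91 and 0.60) and decide little. Of the listed genes Cx3cr1 and Itgam, both microglia markers, were called, at -3.66 and -3.58.

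Sham microglia were compared with sham astrocytes for the levels without injury. With at least 10 counts required in every library 6 members were called higher in microglia and Slfn5 was not, while Slfn2, Slfn8 and Slfn9 were not tested. The share of all genes called under that filter is not given here, so this count is a description. With the usual filter 9 were called higher and 0 lower, where 25.3% of genes tested were called higher, 35.6% lower and 60.9% in either direction. In 8 members every microglia library lay above every astrocyte library, as in 23% of genes. Slfn2 and Slfn8 passed that filter only through the microglia libraries, where they are high, so they had to differ and the counts with them are descriptions.

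**Figure D5:**
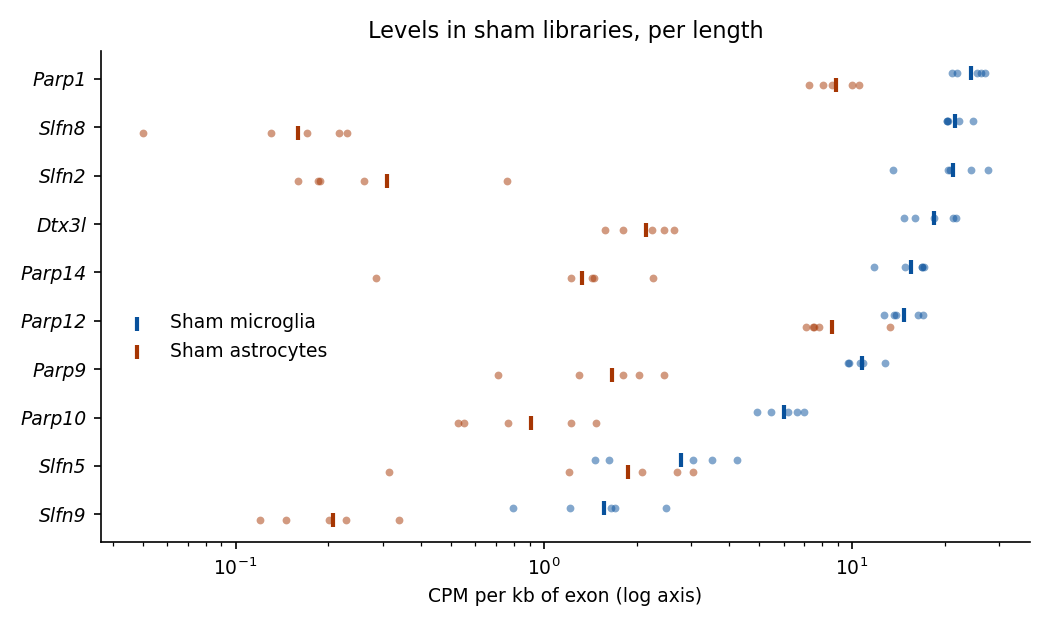
CPM per kb of exon on a log axis for each member in the 5 Sham microglia and 5 Sham astrocyte libraries, with points for libraries and a bar at the mean. Slfn8 has means of 21.6 and 0.159 CPM per kb in microglia and astrocytes, and Slfn5 has means of 2.78 and 1.87.

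Slfn8 was at 88.6 ± 7.76 CPM in Sham microglia and 0.652 ± 0.297 CPM in Sham astrocytes, and Slfn2 at 35.5 ± 8.68 and 0.517 ± 0.422 CPM (SD, n = 5), from 30 and 23 counts in the astrocytes, so no test is given for them. On the log2 scale Parp14 differed by 3.54, Dtx3l by 3.10, Slfn9 by 2.93, Parp10 by 2.73, Parp9 by 2.69 and Parp1 by 1.45. Parp12 differed by 0.77 with overlapping groups, since Sham astrocyte library 3 was at 53.3 CPM.

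Slfn5 was the only member not called between the sham groups. It was at 17.6 ± 7.59 CPM in Sham microglia and 11.8 ± 7.07 CPM in Sham astrocytes (SD, n = 5), and the groups overlapped. Its order by library in Sham astrocytes was that of the endothelial markers, 226 ± 166 CPM (SD, n = 5), as given above. The part of endothelial cells in its level was not tested. The log2 difference was 0.57 (SE 0.47, 95% interval -0.41 to 1.55), with an adjusted p of 0.305 in the edgeR quasi-likelihood test (Benjamini-Hochberg). After FPI it stood at 83.2 ± 29 CPM in microglia and 14 ± 7.96 CPM in astrocytes (SD, n = 5).

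Per kb of exon, the order of the means in Sham microglia was Parp1 at 24.3, Slfn8 at 21.6, Slfn2 at 21.4, Dtx3l at 18.5, Parp14 at 15.5, Parp12 at 14.7, Parp9 at 10.8, Parp10 at 6.04, Slfn5 at 2.78 and Slfn9 at 1.57 CPM per kb. Neighbours in the order from Parp1 to Parp12 differed by about 1 SD or less, whereas Parp10 and Slfn5 were further apart than their SDs of 0.853 and 1.20 CPM per kb. In FPI microglia Slfn2 had the highest mean, 47.9 ± 12.6 CPM per kb, followed by Slfn8 at 32.3 ± 3.63 (SD, n = 5). Slfn5 reached 13.2 ± 4.58 CPM per kb and Slfn9 3.28 ± 1.08, the lowest (SD, n = 5). In Sham astrocytes Parp1 and Parp12 were highest, at 8.89 ± 1.35 and 8.65 ± 2.63 CPM per kb (SD, n = 5), and did not differ beyond their spread.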

How the data were processed

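The authors deposited raw gene counts for 39017 identifiers, and the 20 sample files were identical to the combined table. The submitters' processing notes name bcl2fastq, HISAT2 2.1.0 and featureCounts with mm10 and GRCm38.p6. Settings for strand and for reads with several matches are not given in the sources used here. Libraries were made from total RNA with a stranded kit for low input. Groups follow the titles. By animal number, 3 mice supplied both cell types, and all libraries were taken as independent.

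All genes were fitted in edgeR 4.0.16 (R 4.3.3, limma 3.58.1) with its default filter on low counts by group, TMM factors and the quasi-likelihood test, with p-values adjusted by Benjamini-Hochberg over all genes tested. Each cell type was fitted alone for FPI against sham, and all 20 libraries together for the contrasts between cell types. Calls required an adjusted p under 0.1 and a log2 change of more than 0.6 either way, or for the difference between effects an adjusted p under 0.1. SE is the fold change divided by the square root of F. The fit was tested on simulated data. Alternatives tried were DESeq2 1.42.0, other size factors, filters, thresholds and robust fits, replicate and series terms, each library series alone, and leaving out single libraries or the animals with both cell types. The filter used with the replicate and series terms was chosen after seeing the data. Exon lengths and positions are from GENCODE M21. Sequences were read with biopython 1.88, tables made with pandas 2.3.3, numpy 2.4.6 and scipy 1.17.1, and figures drawn with matplotlib 3.10.9 in Python 3.11.15.

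The members and lists were chosen with earlier results of these data known. All members are named. A gene of another list is named if called after FPI in either cell type, if its adjusted p for the difference between effects is below 0.1, or if it is a PARP or Schlafen. For each tested member but Parp1 the nearest gene over the microglia libraries is named. The most abundant marker of a list and markers at 0 are named beside its sum. Tmem119 and P2ry12 were chosen after their values were seen. Some results that these rules would give are not reported here.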

Additional observations from a re-analysis of the deposited data

Results flagged for a closer look

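In 2 of 40 groups of 5 libraries, 1 library stood far from the other 4, and chance alone gives this in about 1 in 20 groups. Parp12 was at 53.3 CPM in Sham astrocyte library 3, against 28.3 to 31.2 CPM in the other Sham astrocyte libraries. Slfn2 was at 1.26 CPM in Sham astrocyte library 5, from 10 counts, against 0.266 to 0.435 CPM in the others. The effect of FPI on 0 members passed the test of a difference between microglia and astrocytes.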

How the results depend on the processing

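The count of 6 members called in microglia was 7 with DESeq2, 8 with at least 10 counts in every library and 4 at an adjusted p below 0.05, and it was 3 with replicates 4 and 5 alone and 1 with all 20 libraries fitted together. Leaving out 1 library gave 3 to 8 members. For these settings the share of all genes called is not given here, so a change in the count cannot be read as particular to the members. The labels do not pair the libraries by replicate number, and not every library correlated best with its own number, since the correlations of same-numbered libraries ran from -0.066 to 0.092 in microglia (2 of 5 best with their own number) and from -0.0093 to 0.452 in astrocytes (3 of 5), where 4 of the 5 were at 0.245 or above. With the replicate number as a block 4 members were called in microglia, 0 in astrocytes, 0 for the difference between effects and 9 between the sham groups. With that block the estimate for Parp14 in astrocytes was 0.85 on the log2 scale (SE 0.24, adjusted p 0.779 in the edgeR quasi-likelihood test with Benjamini-Hochberg). The block fit with the filter on low counts taken from the block design gave 5, 0, 0 and 9. It was the form first run. Holding the filter as in the other fits was chosen after its result had been seen, so that 1 setting changed at a time. A term for replicates 4 and 5 gave 6 members in microglia with either filter. In astrocytes and for the difference between effects the count was 0 in every alternative, 0 to 0 on leaving out 1 library, and between the sham groups it was 6 to 9, 9 to 9 on leaving out 1 library. Estimates that changed sign were not called before or after. The log2 fold change of Parp1 in microglia was -0.11 with replicates 4 and 5 alone, and that of Slfn5 in astrocytes -0.028 without sham replicate 1 and -0.067 without FPI replicate 5, in a range up to 0.51 without sham replicate 5. Without the astrocyte libraries of the 3 animals that gave both cell types, the difference between effects was -0.33 for Parp10 and -0.19 for Parp14. Without their microglia libraries it was 0.017 for Parp9, -0.0044 for Parp10 and -0.024 for Parp14. The causes were not tested. Totals of 23 to 108 counts per group limit Slfn2, Slfn8 and Slfn9 in astrocytes.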
